A study of Homo sapiens with 5 samples.

Results

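The SLC2A genes encode the facilitative glucose transporters (GLUT proteins), and 7 of them were followed here through low oxygen and its return in MDA-MB-231 cells, an established human triple-negative breast cancer line. The 7 genes, chosen by symbol, were SLC2A1, SLC2A3, SLC2A14, SLC2A6, SLC2A8, SLC2A10 and SLC2A12, out of 26475 gene symbols counted. SLC2A3 and SLC2A14 were also summed because they share sequence. The study took RNA from 5 conditions of the same line with 1 library each. Cells were kept for 1 day either at 20% O2 or at 1% O2, and likewise for 10 days, and reoxygenated cells were moved to 20% O2 for 10 days once they had spent 10 days at 1% O2. Values are listed below in the order 20% and then 1% O2 of day 1, 20% and then 1% O2 of day 10, and reoxygenated. The design sets acute hypoxia (1 day) beside chronic hypoxia (10 days) and both beside the return of oxygen. The labels name no added gene, deletion or drug in any group. They do not say whether libraries came from separate cultures, and the reoxygenated cells had been in culture longer than any never-hypoxic cells.

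Glucose crosses the plasma membrane down its gradient through GLUT proteins and is then trapped inside the cell by hexokinases, which phosphorylate it. When oxygen is short, cells make less ATP in mitochondria and draw more on glycolysis, which raises their demand for glucose. SLC2A1 (GLUT1), which serves basal uptake in most cells, and SLC2A3 (GLUT3), a carrier of high affinity best known from neurons, are established targets of the hypoxia-inducible factors (HIFs), transcription factors that are stabilized at low oxygen. SLC2A14 (GLUT14) arose by duplication of SLC2A3 and is known mainly from testis, SLC2A12 (GLUT12) was first described in breast cancer cells, SLC2A10 (GLUT10) is known from the biology of the arterial wall, and SLC2A6 (GLUT6) and SLC2A8 (GLUT8) act mostly on membranes inside the cell.

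Whether reads of SLC2A3 and SLC2A14 can be told apart decides what the values of either row mean, so their coding sequences were compared first. Both genes lie on the minus strand of chromosome 12 in GRCh38, SLC2A14 at 7812512 to 7891148 and SLC2A3 at 7919230 to 7936275 (GENCODE 29). Over 1488 aligned coding bases 96.8% were identical, 47 bases differed, and the longest identical run had 137 bases. Of the 50-base words of the longest coding transcripts, 23.0% of those of SLC2A3 occurred in SLC2A14 and 21.8% of those of SLC2A14 occurred in SLC2A3, so most of either transcript was distinct. The 90 coding bases with the most differences, 8 in all, are shown with the differing bases in capitals, read from GENCODE 29 transcripts at coding bases 522 to 611 of SLC2A3 and 639 to 728 of SLC2A14:
SLC2A3: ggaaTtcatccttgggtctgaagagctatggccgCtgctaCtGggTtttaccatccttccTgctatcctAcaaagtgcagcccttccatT
SLC2A14: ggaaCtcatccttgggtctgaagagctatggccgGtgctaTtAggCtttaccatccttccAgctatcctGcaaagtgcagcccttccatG

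The starts of members that were higher at 1% O2 were searched for the short core that HIFs bind, beside members that were not higher. The cores searched were ACGTG and GCGTG on both strands (CACGT and CACGC where they lie on the other strand), and ACGTG overlaps the E-box CACGTG of other factors. RefSeq promoter sequences (GRCh38.p14, 250 bases before the start of transcription and 50 after) were found for 6 of the 7 members, all except SLC2A3. A core occurred in 4 of these 6 windows and in 48.4% of 35116 promoters of the same length. SLC2A1 and SLC2A10, both higher after 10 days at 1% O2, held 1 core each, and SLC2A6, whose level at day 10 did not differ beyond counting error, held 3. SLC2A14, listed with no counts, held 1, and neither SLC2A12 nor SLC2A8 held any. A match is a description of letters and no evidence of binding, and its absence here says nothing about the factor. The core of SLC2A1 lay 26 bases after the start and that of SLC2A10 73 bases before it, shown in capitals with their surroundings, and SLC2A6 and SLC2A12 are shown for contrast with the upstream bases that lie in no annotated exon:
SLC2A1 (chr1:42958829-42958853, minus strand): gcaacagcgaGCGTGccggtcgcta
SLC2A10 (chr20:46709566-46709590, plus strand): tggctggccgACGTGgcgttggcgg
SLC2A6 (chr9:133479138-133479349, minus strand): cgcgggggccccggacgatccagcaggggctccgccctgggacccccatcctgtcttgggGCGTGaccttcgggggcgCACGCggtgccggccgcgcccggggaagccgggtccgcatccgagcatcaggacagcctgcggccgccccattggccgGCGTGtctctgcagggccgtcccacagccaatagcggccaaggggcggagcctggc
SLC2A12 (chr6:134052637-134052874, minus strand): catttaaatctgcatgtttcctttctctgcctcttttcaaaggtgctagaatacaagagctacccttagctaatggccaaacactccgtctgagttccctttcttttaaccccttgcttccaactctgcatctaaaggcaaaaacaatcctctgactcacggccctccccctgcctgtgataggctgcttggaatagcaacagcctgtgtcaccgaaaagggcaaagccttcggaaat

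The cores of SLC2A6 lay 190, 172 and 94 bases before the start. All starts here are those of RefSeq. The printed stretches of SLC2A1 and SLC2A10 lie inside the bounds of these genes in GENCODE 29. The window of SLC2A12 also stood apart in base composition, with 45.7% G and C and 5 CpG dinucleotides over its 300 bases, against 67.0% to 78.0% and 30 to 33 CpG in the other 5 windows.

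Estimated counts per library summed to between 7719797 (reoxygenated) and 12544953 (20% O2, day 10), so 1 count is worth 0.0816 to 0.126 CPM (counts scaled to a common library size with TMM factors, which correct for library composition). Log2 differences carry a prior count of 2, which understates those of genes with few counts, and folds are on that scale. Every level has an exact 95% Poisson interval and every log2 difference an exact 95% interval of the count ratio. With 1 library per condition there is no replicate check, so the intervals hold counting error alone and leave out how far cultures differ. As checks of the labelled line, the mesenchymal genes VIM, CD44, AXL, MSN, CAV1 and ANXA1 were abundant, and of 7 luminal genes 5 passed the filter. KRT19 had 781 to 1508 counts, EPCAM 121 to 303, GATA3 64 to 119 and FOXA1 and CDH1 at most 13, while ESR1 and PGR had at most 4. Of 7 genes of blood, endothelium and liver, only PTPRC and PECAM1 passed the filter, with at most 28 counts. Between 1% and 20% O2 at day 10 the mesenchymal genes had a median log2 difference of −0.67 and the 5 luminal genes one of 0.56, and the part of these in the values below was not tested. All 5 hypoxia genes chosen to check the oxygen labels, CA9 among them, rose at 1% O2 in the test described below. None of the 5 was called without the day term or when either 20% O2 library was left out, 2 (CA9 and NDRG1) were called without the 10-day 1% O2 library, 1 (CA9) in the robust fit, 3 with library totals and 4 with DESeq2.

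SLC2A1 was the most abundant member at 20% O2 and was higher at 1% O2 on both days. Its level was 231 CPM (221 to 240) after 1 day at 20% O2 and 344 CPM (333 to 356) after 1 day at 1% O2. At day 10 it was 228 CPM (220 to 237) at 20% O2 and 506 CPM (492 to 519) at 1% O2, and in reoxygenated cells 266 CPM (255 to 277). Both 1% O2 libraries thus lay above all 3 libraries at 20% O2, and only the 20% O2 libraries of day 1 and day 10 could not be told apart by counting error. The log2 difference between 1% and 20% O2 was 0.58 (0.50 to 0.65) at day 1, or 1.49-fold, and 1.15 (1.08 to 1.21) at day 10, or 2.21-fold. SLC2A1 lies on chromosome 1 at 42925375 to 42959176, minus strand, where 128 of its 4724 exonic bases are shared with the antisense gene SLC2A1-AS1. That gene had 4, 4, 6, 26 and 3 counts in the order given at the start, against 2394 to 5278 for SLC2A1, so even its highest count was small beside that of SLC2A1.

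SLC2A3 showed the largest difference of the 7 at day 10. It had 336 counts after 1 day at 20% O2, or 32.4 CPM (28.99 to 36.01), and 805 counts after 1 day at 1% O2, or 74.6 CPM (69.5 to 79.9). At day 10 it had 420 counts at 20% O2, or 34.3 CPM (31.1 to 37.7), and 7160 counts at 1% O2, or 686 CPM (670 to 702). Reoxygenated cells had 426 counts, or 53.6 CPM (48.6 to 58.9). The 10-day library at 1% O2 stood far above the other 4. The 20% O2 libraries of day 1 and day 10 overlapped, and the reoxygenated library lay above both. The log2 difference between 1% and 20% O2 was 1.2 (1.02 to 1.39), or 2.30-fold, at day 1 and 4.32 (4.18 to 4.47), or 19.9-fold, at day 10, where 13 of 13940 genes compared had a higher value. Within 1% O2 the level was 9.18-fold higher at day 10 than at day 1, a log2 difference of 3.20 (3.10 to 3.31).

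SLC2A14 was listed at 0 in all 5 libraries. A count of 0 allows up to 3 counts, which is 0.245 to 0.377 CPM at these depths. The sum of SLC2A3 and SLC2A14 therefore equalled SLC2A3 in each library, and summing left every difference as it was. The counts were assigned by estimation, so a read from one of the shared stretches may have been credited to either gene, and the coding bases in which they differ are those printed in part above.

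**Figure D1:**
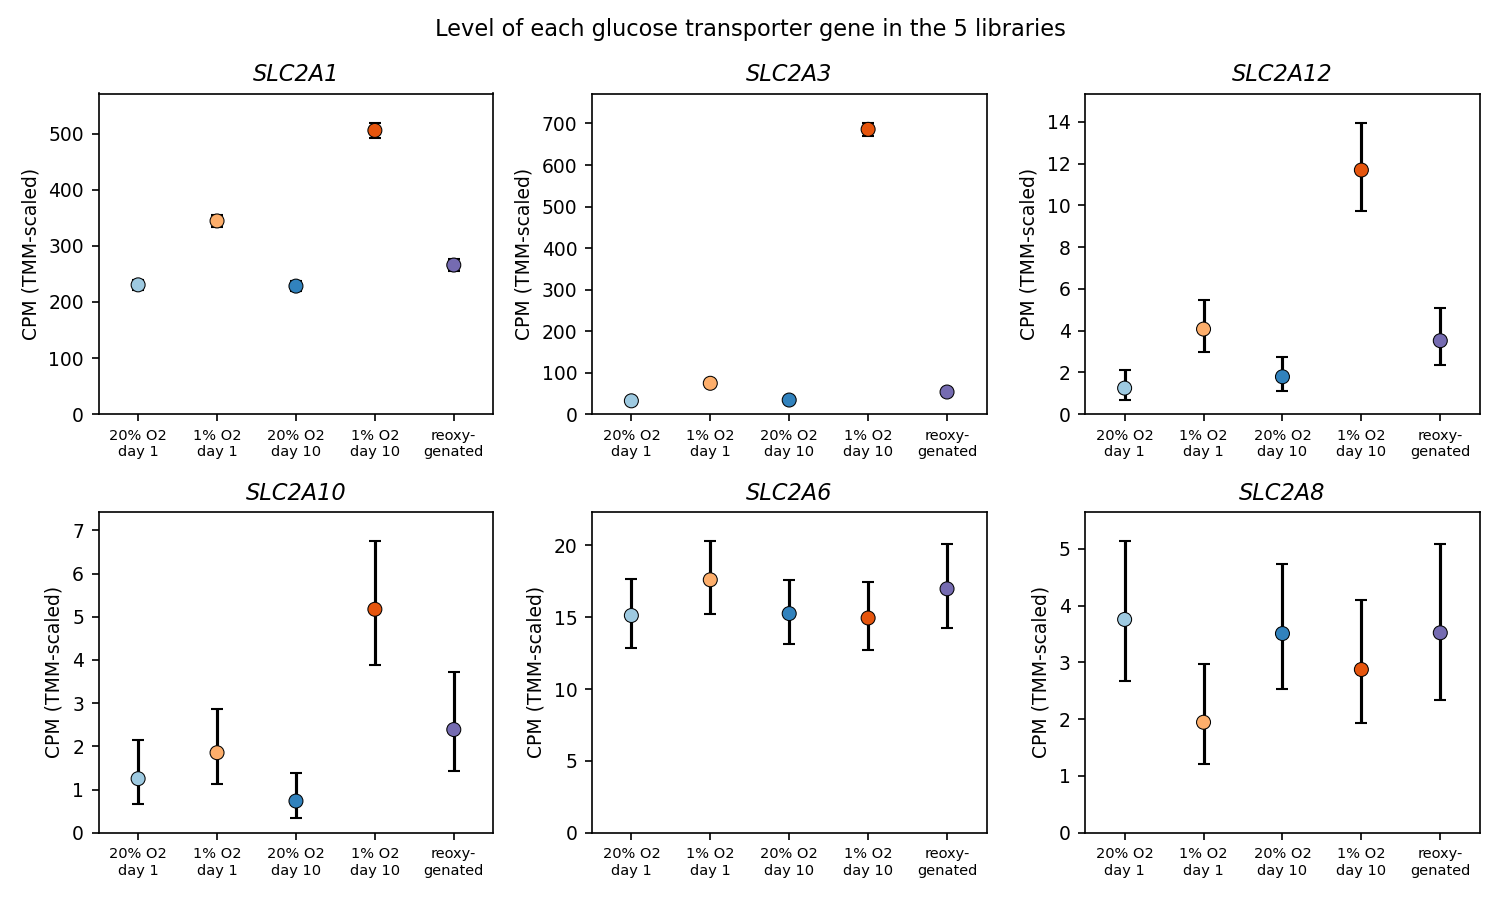
Level of 6 members in each of the 5 libraries, in TMM-scaled CPM on linear axes that start at 0 and differ between panels. Points are single libraries and bars are exact 95% Poisson intervals (counting error only). SLC2A3 goes from 34.3 CPM at 20% O2 to 686 CPM at 1% O2 on day 10, whereas SLC2A6 stays between 14.9 and 17.6 CPM.

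The relation between SLC2A1 and SLC2A3 was inverted after 10 days at 1% O2. Their count ratio within a library does not depend on any scaling between libraries. SLC2A3 had 0.140 counts for each count of SLC2A1 (0.125 to 0.157) after 1 day at 20% O2, 0.217 (0.200 to 0.234) after 1 day at 1% O2, 0.150 (0.135 to 0.166) after 10 days at 20% O2, 1.36 (1.31 to 1.41) after 10 days at 1% O2 and 0.202 (0.181 to 0.224) in reoxygenated cells. The ratio at 1% O2 was 1.54 times (1.34 to 1.78) that at 20% O2 on day 1 and 9.04 times (8.10 to 10.1) on day 10. Between the 20% O2 libraries of both days it was 1.07 times (0.914 to 1.25), an interval that includes no difference. Per kilobase of the longest coding transcript (3670 bases for SLC2A1 and 3915 for SLC2A3), the ratio of levels at 1% O2 on day 10 was 1.27 (1.23 to 1.32), so SLC2A3 was the more abundant transcript there and the less abundant in the other 4 libraries.

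Summed over all 14 SLC2A genes in the table, the level per kilobase was 81.7 CPM per kb in both 20% O2 libraries of day 1 and day 10, 125 CPM per kb after 1 day at 1% O2, 328 after 10 days at 1% O2 and 98.2 in reoxygenated cells. SLC2A1 made up 76.9%, 75.4%, 76.1%, 42.1% and 73.8% of that sum in the order given at the start. SLC2A3 made up 10.1%, 15.3%, 10.7%, 53.5% and 13.9%. The other 12 genes together held 13.2% or less in every library, and 4.44% after 10 days at 1% O2. By rank per kilobase among 13173 genes with a length, SLC2A3 went from 6170 at 20% O2 to 213 at 1% O2 on day 10, and SLC2A1 from 1113 to 305.

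**Figure D2:**
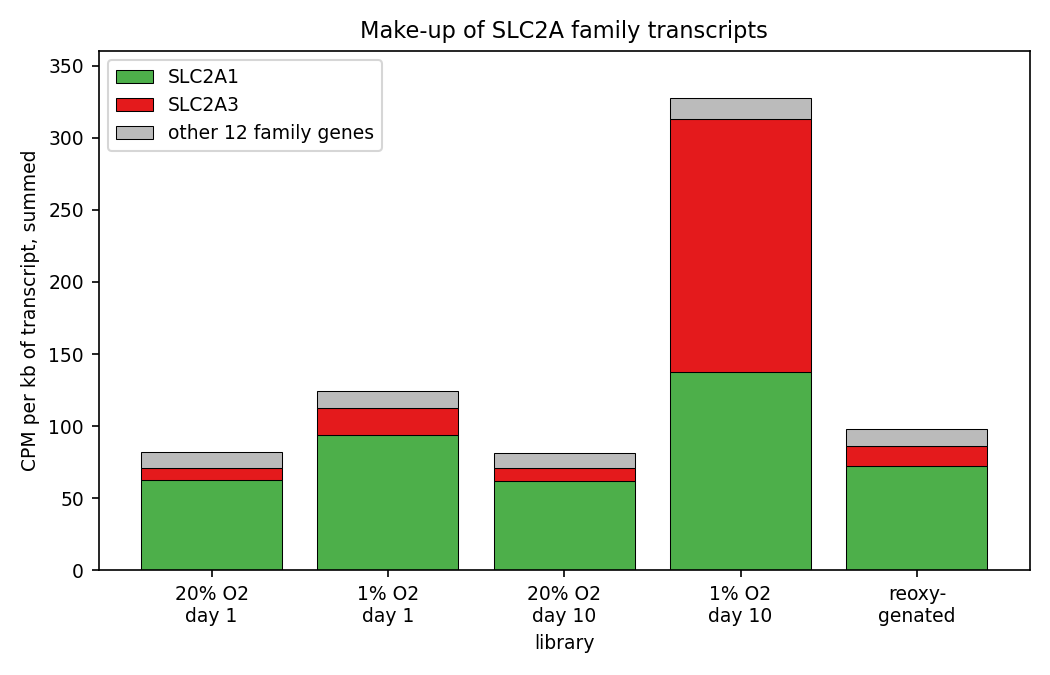
Level per kilobase of transcript summed over the 14 SLC2A genes, by library, on a linear axis from 0, divided into SLC2A1 (green), SLC2A3 (red) and the other 12 genes (grey). Bars are single libraries without replicates. The red part takes 53.5% of the bar after 10 days at 1% O2 and 10.1% to 15.3% of the others.

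SLC2A12 was expressed at a low level and was higher at 1% O2 on both days. It had 13 counts after 1 day at 20% O2, or 1.25 CPM (0.667 to 2.14), and 44 after 1 day at 1% O2, or 4.08 CPM (2.96 to 5.47). At day 10 it had 22 counts at 20% O2, or 1.79 CPM (1.125 to 2.717), and 122 at 1% O2, or 11.7 CPM (9.706 to 13.95). Reoxygenated cells had 28 counts, or 3.52 CPM (2.34 to 5.09). Only the 10-day library at 1% O2 had an interval clear of all others, since that of reoxygenated cells overlapped those of its neighbours on either side. The log2 difference was 1.56 (0.78 to 2.72) at day 1 and 2.58 (2.04 to 3.43), or 5.98-fold, at day 10.

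SLC2A12 lies on the minus strand of chromosome 6 at 133988697 to 134052636, and 1736 of its 4468 exonic bases overlap exons of TBPL1, a gene of the TATA-binding protein family on the other strand. How the counting treated strand is not given in the sources used here, so reads in that overlap cannot be told apart. TBPL1 had 25.1, 23.5, 24.1, 18.2 and 25.5 CPM in the order given at the start and was lowest where SLC2A12 was highest. Both rows summed to 26.4, 27.6, 25.9, 29.9 and 29.04 CPM, a sum in which TBPL1 holds most of the counts. The log2 difference of the sum was 0.06 (−0.18 to 0.31) at day 1 and 0.21 (−0.02 to 0.44) at day 10. Whether reads moved between these rows was not tested.

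SLC2A10, on chromosome 20 at 46709487 to 46736347, had 13, 20, 9, 54 and 19 counts in the same order, or 1.25, 1.85, 0.734, 5.17 and 2.39 CPM. The 10-day library at 1% O2 was highest, and only its interval was clear of all others. The 10-day library at 20% O2 was lowest, at 0.336 to 1.39 CPM, and overlapped both day 1 libraries (0.667 to 2.14 CPM at 20% O2 and 1.13 to 2.86 CPM at 1% O2). The intervals of the other 3 overlapped each other. At day 1 the log2 difference was 0.50 (−0.51 to 1.70), which was not detectable at this depth, and at day 10 it was 2.53 (1.79 to 4.02), or 5.79-fold. Between the 20% O2 libraries the difference was −0.64 (−2.18 to 0.57), within counting error, and between day 10 and day 1 within 1% O2 it was 1.39 (0.72 to 2.30).

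Neither carrier of inner membranes differed by 2-fold between any pair of libraries compared. SLC2A6, on chromosome 9 at 133471095 to 133479137, had 15.1, 17.6, 15.3, 14.9 and 17.0 CPM from 135 to 190 counts. Its log2 difference between 1% and 20% O2 was 0.22 (−0.09 to 0.53) at day 1 and −0.03 (−0.35 to 0.28) at day 10, an interval well inside 2-fold. SLC2A8, also on chromosome 9 at 127397138 to 127408424, had 39, 21, 43, 30 and 28 counts, or 3.76, 1.95, 3.51, 2.87 and 3.52 CPM. It was lower at 1% O2 on day 1, at −0.88 (−1.79 to −0.15), and the difference at day 10, −0.27 (−1.01 to 0.42), was within counting error.

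Members were counted as higher or lower where the log2 difference was at least 1 in size (2-fold), beside the share of all 13940 genes past the same rule. As the members were chosen with earlier results of these data known, these shares are descriptive only. Of the 7 members 6 passed the filter of 1 CPM in at least 1 library. After 1 day at 1% O2, 2 of the 6, SLC2A3 and SLC2A12, were higher, against 2.12% of all genes, and none was lower, against 0.839%. After 10 days 4 of the 6 were higher (SLC2A1, SLC2A3, SLC2A10 and SLC2A12), against 14.4% of all genes, and none was lower, against 7.06%. Scaled by library totals alone, 77.7% of genes past the rule at day 10 were higher, compared with 67.1%, and the median of all genes moved from 0.02 to 0.14, while the same 4 members passed. The median over the 6 was 0.54 at day 1 and 1.84 at day 10, beside 0.00 and 0.02 for all genes.

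Day 10 against day 1 within 1% O2 placed SLC2A3, SLC2A10 and SLC2A12 higher, against 14.2% of all genes, and none lower, against 6.56%. Of the genes past the rule in that comparison 68.4% were higher, and 80.3% with library totals. In the difference of both oxygen differences, day 10 minus day 1, the same 3 genes were higher, with values of 3.12 for SLC2A3, 2.03 for SLC2A10 and 1.02 for SLC2A12, against 12.5% of all genes. SLC2A1 had 0.57, SLC2A8 0.61 and SLC2A6 −0.25 in that contrast, and SLC2A12 summed with TBPL1 had 0.14. Between the 20% O2 libraries, whose labels differ in time only, no member passed the rule in either direction, against 3.06% of all genes higher and 1.31% lower. They may also differ in culture, which the labels do not give. These comparisons share libraries and are not independent of each other.

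**Figure D3:**
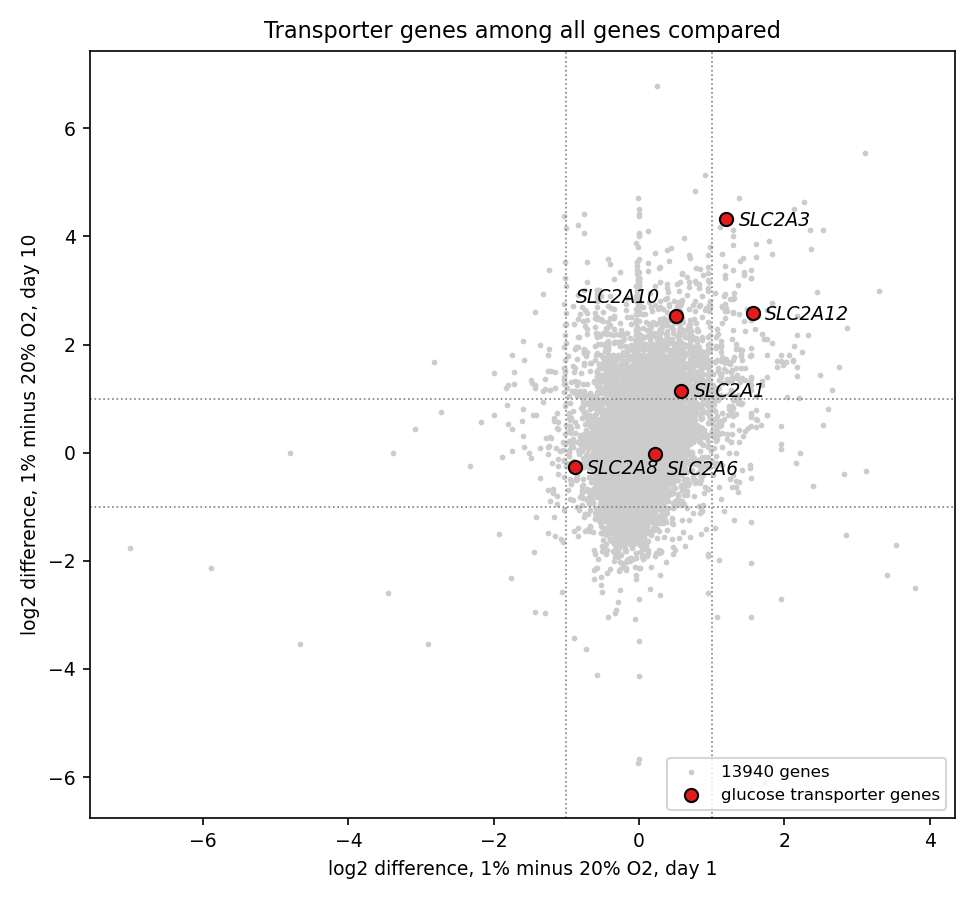
Log2 difference between 1% and 20% O2 at day 1 (horizontal) and day 10 (vertical) for 13940 genes (grey points) and 6 glucose transporter genes (red points), with dotted lines at the 2-fold rule. SLC2A3 and SLC2A12 pass the rule on both days, SLC2A1 and SLC2A10 on day 10 only, and SLC2A6 and SLC2A8 on neither.

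The 4 libraries of day 1 and day 10 were then tested together for an effect of oxygen, with the day as a term, in edgeR (quasi-likelihood, p-values adjusted by Benjamini-Hochberg over 13011 genes). SLC2A3 and SLC2A12 rose at 1% O2, in the same direction on both days. Each SE here and below is the size of the log2 change divided by the square root of edgeR's F statistic. The edgeR estimate for SLC2A3 was 2.81 on the log2 scale with an SE of 0.49 and an adjusted p of 0.00285, and that for SLC2A12 was 2.28 with an SE of 0.52 and an adjusted p of 0.0304. They were 2 of 6 members tested, against 0.707% of all genes that rose, and no member fell, against 0.0538%. SLC2A1 had a change of 0.90 (SE 0.29, edgeR adjusted p = 0.195), SLC2A10 of 1.74 (SE 0.63, edgeR adjusted p = 0.269), SLC2A6 of 0.13 (edgeR adjusted p = 0.911) and SLC2A8 of −0.57 (edgeR adjusted p = 0.704), none past the threshold of 0.05. The fit has 1 residual degree of freedom, which holds any difference in the oxygen effect between the days. Both calls depend on the settings of the fit. Neither was made by DESeq2 (adjusted p = 0.758 for SLC2A3 and 0.146 for SLC2A12), by edgeR with library totals (0.0532 and 0.108), by edgeR's robust fit (0.640 and 0.0531, tried after the data were seen) or by edgeR without the day term (0.779 for both). The call of SLC2A12 was also absent when its row was summed with TBPL1 (edgeR adjusted p = 0.850). That sum cannot tell whether SLC2A12 itself rose, since TBPL1 holds most of its counts. In edgeR fits of 3 libraries without the day term, neither was called without either 20% O2 library, SLC2A3 alone was called without 1% O2 at day 10, and SLC2A1, SLC2A3, SLC2A10 and SLC2A12 were called without 1% O2 at day 1.

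In reoxygenated cells the members that had been higher at 1% O2 were lower than after 10 days at 1% O2. Those members were named for being high in that same single library, which favours a lower value in any other. The shares of all genes given here include genes that were not high in it. Against the 10-day library at 1% O2, SLC2A3 was lower by a log2 difference of −3.67 (−3.82 to −3.54), SLC2A12 by −1.68 (−2.38 to −1.13) and SLC2A10 by −1.06 (−1.95 to −0.34), 3 of 6 members against 11.1% of all genes. On the deposited TMM values, as log2(value + 1), SLC2A10 was at −0.89 and did not pass. None was higher, against 5.61%, and SLC2A1 had −0.93 (−1.001 to −0.855), just inside the rule. Summed with TBPL1, which holds most counts of the sum, SLC2A12 differed by −0.04 (−0.29 to 0.21) and did not pass either.

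Reoxygenated cells lay above the 10-day 20% O2 library beyond counting error for 4 members, by amounts smaller than the rule for 3 of them. The share of all genes higher beyond counting error was not computed. From the highest of 13940 genes in this comparison, SLC2A1 ranked 3939, SLC2A3 1235, SLC2A12 621 and SLC2A10 151, so the value of SLC2A1 was a common one. SLC2A1 was higher by 0.22 (0.14 to 0.30), or 1.16-fold, SLC2A3 by 0.64 (0.45 to 0.84), or 1.56-fold, and SLC2A12 by 0.90 (0.11 to 1.85). SLC2A10 was higher by 1.48 (0.49 to 3.03), from 9 and 19 counts, and was the only member past the rule, against 3.40% of all genes higher and 1.41% lower. On the deposited TMM values, as log2(value + 1), SLC2A10 was at 0.93 and did not pass. Its reoxygenated level, 2.39 CPM (1.44 to 3.73), overlapped that of the 1-day 20% O2 library, 1.25 CPM (0.67 to 2.14). SLC2A6, at 0.15 (−0.18 to 0.48), and SLC2A8, at 0.01 (−0.74 to 0.73), were within counting error. The count ratio of SLC2A3 to SLC2A1 in reoxygenated cells was 1.34 times (1.16 to 1.56) that of the 10-day 20% O2 library. Time in culture differed between these libraries as well as the earlier hypoxia, and the labels give no way to tell them apart.

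**Figure D4:**
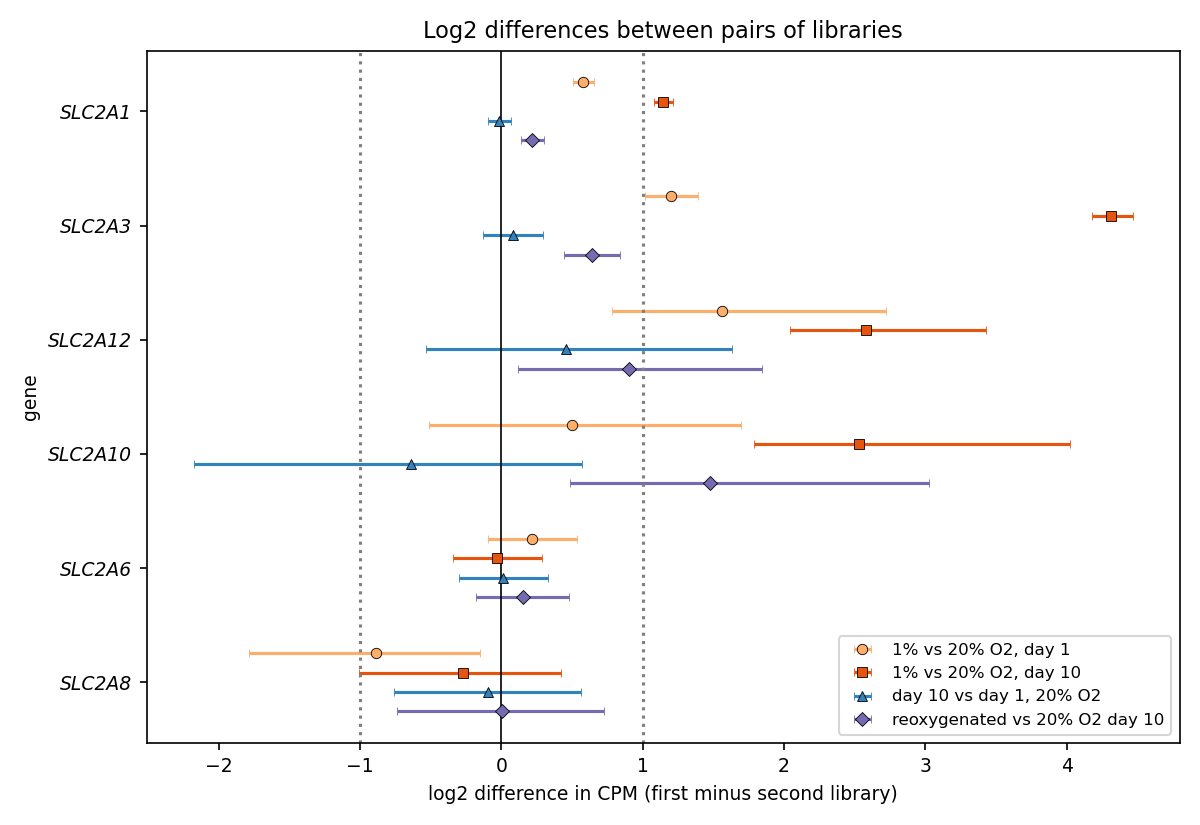
Log2 differences in CPM for 6 members in 4 pairs of libraries (symbols and colours in the key), with exact 95% intervals of the count ratio (counting error only) and dotted lines at the 2-fold rule. SLC2A3 reaches 4.32 at day 10, and its reoxygenated value of 0.64 lies between 0.08 for time at 20% O2 and 1.2 for day 1 at 1% O2.

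The genes most like a member were those with the smallest root mean square difference of centred log2 CPM over the 5 libraries, among 11462 genes that reached 5 CPM in some library. For SLC2A3, whose log2 CPM spanned 4.40, these were FKBP9P1 (0.27), SLC5A3 (0.27), CHRNA1 (0.29), C1QL1 (0.30) and LINC01583 (0.30), and SLC5A3 is the sodium-driven carrier of myo-inositol. For SLC2A12 they were the nuclear receptor gene RORA (0.05), the circadian factor gene DBP (0.12), PNRC1 (0.15), CYTH4 (0.22) and the glutamate carrier gene SLC1A1 (0.23). For SLC2A10 they were FOXO4 (0.16), HIST1H2BD (0.17), VEGFA (0.19), CALCOCO1 (0.19) and ZNF528 (0.22). All 15 had their highest level in the 10-day 1% O2 library, which follows from choosing them for likeness to members highest there. Some reached 5 CPM in that library only, such as FKBP9P1 (3, 8, 5, 77 and 3 counts), DBP (8, 22, 11, 68 and 16) and CYTH4 (9, 26, 12, 86 and 25). The 5 points are few, and FKBP9P1 is a pseudogene whose reads may belong to a near-identical gene.

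Most other carriers of the family were at or near 0. Of 7 further SLC2A genes 3 passed the filter. SLC2A13, the proton myo-inositol carrier, had 79, 110, 66, 80 and 56 counts and differed by 0.41 (acute) and 0.49 (chronic), and SLC2A11 had 28, 31, 53, 51 and 34 counts and differed by 0.09 and 0.17. SLC2A4, which encodes the insulin-responsive carrier GLUT4, had 11, 4, 13, 28 and 3 counts, with a log2 difference of −1.15 (−3.62 to 0.24) at day 1 and 1.198 (0.343 to 2.41) at day 10. SLC2A2, SLC2A5, SLC2A7 and SLC2A9 had at most 5 counts in a library. Of 5 sodium-glucose cotransporters only SLC5A4 passed the filter, with 16, 13, 9, 9 and 5 counts. None of these 4 genes that passed the filter was called in the edgeR oxygen test.

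The step after uptake is phosphorylation. HK2, the hexokinase gene most often raised in tumours, had 2135 counts after 1 day at 20% O2, 4035 after 1 day at 1% O2, 2559 and 4385 at day 10 and 1147 in reoxygenated cells. Its log2 difference was 0.86 (0.79 to 0.94) at day 1 and 1.01 (0.94 to 1.08) at day 10, and unlike SLC2A1 and SLC2A3 it lay below the 10-day 20% O2 library after reoxygenation, at −0.53 (−0.64 to −0.43). HK2 was not called in edgeR's oxygen test (log2 change 0.97, adjusted p = 0.132). Of the 6 of 11 genes of this list that passed the filter, the others at day 10 were HK1 at 0.36, G6PC3 at −0.07, HKDC1 at −0.14, SLC37A4 at −0.15 and ADPGK at −0.75. The list's median was 0.18 at day 1 and −0.11 at day 10, beside 0.00 and 0.02 for all genes, and no member rose or fell in the edgeR test.

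Among 15 genes that sort or retain glucose carriers, all above the filter, 1 rose in edgeR's test and none fell. It was TXNIP, which encodes an arrestin-like protein that drives GLUT1 into the cell and lowers glucose uptake, with a log2 change of 1.54 (SE 0.31, adjusted p = 0.0131). TXNIP had 1314 and 2841 counts at day 1 and 2735 and 8976 at day 10 (20% and 1% O2), and was also 0.82 (0.72 to 0.91) higher at day 10 than at day 1 within 20% O2. The call of TXNIP was lost without the day term and in each fit that left out a 20% O2 library or the 10-day 1% O2 library. Its relative ARRDC4 had differences of 0.77 and 1.08, and TBC1D5, a regulator of endosomal sorting, of 0.12 and 0.52. The lowest at day 10 were VPS26A (−0.77) and VPS35 (−0.39), subunits of the retromer that returns GLUT1 to the surface, and GIPC1 (−0.49), which binds the tail of GLUT1. The list's median was 0.03 at day 1 and 0.09 at day 10.

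Of 11 transcriptional regulators linked to these carriers, all above the filter, HIF1A was the only one to fall and none rose. HIF1A, which encodes the oxygen-regulated HIF-1α, fell in edgeR's test by 1.78 on the log2 scale (SE 0.33, adjusted p = 0.00556), with 4110 and 2056 counts at day 1 and 5727 and 820 at day 10. The call of HIF1A was lost without the day term and in each fit that left out a 20% O2 library. The EPAS1 gene of HIF-2α had differences of −0.07 (−0.25 to 0.10) at day 1 and 1.16 (1.07 to 1.24) at day 10, and was 1.29 (1.16 to 1.44) higher at day 10 than at day 1 within 20% O2. MLXIPL, a glucose-responsive factor gene, had 8, 8, 18, 43 and 21 counts, and FOXO1 differed by 0.71 at day 10. SLC2A4RG, named for its binding at the SLC2A4 promoter, differed by −0.66 and MYC by −0.26 at day 10. The list's median was −0.04 at day 1 and 0.12 at day 10.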

How the data were processed

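Messenger RNA of 5 MDA-MB-231 conditions was sequenced, 1 library each, per the labels' protocols. The authors deposited expected counts per gene symbol, estimated and not normalized. The submitters' processing notes name RSEM 1.2.15, Bowtie2 2.1.0, edgeR and the build hg38. The annotation and strand setting were not given in the sources used here. The authors also deposited a TMM-normalized signal on a CPM scale. Divided by its step, 100% of its values above 0 came out whole within 0.05 reads and 99.9% or more equalled the rounded expected counts, so it served as an alternative only.

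Expected counts were rounded. Genes that reached 1 CPM in any library (13940) were compared as log2 CPM with TMM factors and a prior count of 2. Intervals are Clopper-Pearson or Poisson at 95% and cover counting error only, as amplified copies could not be told apart. The oxygen effect was tested with edgeR 4.0.16 (R 4.3.3) on 13011 genes that reached 1 CPM in 2 of 4 libraries. Its p-values reflect only how these libraries vary around the fit, which may be technical or a difference in oxygen effect between days. They do not measure how replicate cultures vary. DESeq2 1.42.0, limma 3.58.1, other scalings, filters, prior counts and leaving out libraries were alternatives. The robust fit, library sizes from tested genes, TMM factors over 5 libraries, the recovered reads and the sum with TBPL1 were added after the data were seen. Members, lists and rules were chosen with earlier results of these data known. Named genes were the members, every gene of a list with at most 8 above the filter, otherwise its 3 highest and 3 lowest at day 10, and the 5 genes most like each of the 3 members of widest range. TBPL1 and SLC2A1-AS1 were added after the overlaps were seen. The values of 1 gene of the regulator list are not reported here.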

Additional observations from a re-analysis of the deposited data

Results flagged for a closer look

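Of the 15 sorting genes, VPS26A and VPS35 were picked for oxygen differences of opposite sign at day 1 and day 10. Each of these differences has an interval that excludes 0. The share of all genes with such a change was not computed, and the difference between days was not tested. VPS26A had a log2 difference of 0.12 (0.03 to 0.22) at day 1 and −0.77 (−0.88 to −0.67) at day 10. VPS35, another retromer gene, had 0.10 (0.01 to 0.18) and −0.39 (−0.48 to −0.30). Its lower bound at day 1 lay near 0. DESeq2 size factors moved the median of all genes in that comparison from 0.00 to −0.01, so the sign of VPS35 at day 1 may depend on the scaling. The intervals cover counting error only, with 1 library per condition.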

How the results depend on the processing

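Of 156 recomputed log2 differences of members, 149 stayed within the counting interval of the reported value, none of the called values changed sign, and 7 moved. Those 7 were SLC2A12 summed with TBPL1 (4 values) and, with library totals, SLC2A1 at 1.27 for day 10 and 0.70 between days at 1% O2 and SLC2A3 at 3.34 between days. The values of SLC2A3 summed with SLC2A14 could not move, as SLC2A14 was at 0. Members with few counts have wide intervals that hide large shifts: SLC2A10 at day 10 went from 2.53 to 1.82 with log2(value + 1) of the deposited TMM values and still counted as within. With a rule of log2 0.5 in either direction, 5 members passed after 1 day at 1% O2 (12.7% of all genes), 5 between days at 1% O2 (49.7%), 1 between days at 20% O2 (17.2%) and 3 between reoxygenated and 10-day 20% O2 cells (18.8%). With log2(value + 1) of the deposited TMM values none (0) passed in the last comparison and 2 rather than 3 between reoxygenated and 10-day 1% O2 cells. With SLC2A12 and TBPL1 summed (added after the overlap was seen), 1 member passed after 1 day, 3 after 10 days, 2 between days at 1% O2 and 2 between reoxygenated and 10-day 1% O2 cells. TBPL1 holds most counts of that sum, so a change of SLC2A12 alone shows little in it.

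The oxygen test called 99 genes and 2 members, with 1554 genes at an unadjusted p under 0.05. DESeq2 called 49 genes and 0 members (3 members at an unadjusted p under 0.05), limma-voom 160 genes and the same 2 members, edgeR without the day term 0 genes (478 unadjusted) and 0 members, edgeR with library totals 35 and 0, edgeR without the filter 281 and 2, edgeR's robust fit 39 and 0, and with SLC2A12 and TBPL1 summed 98 and 1. Library sizes taken from the tested genes gave 130 and 2, TMM factors over 5 libraries 106 and 2, and the whole reads recovered from the deposited TMM values 99 and 2. These last 5 settings were chosen after the data were seen. Leaving out 1 library gave 0 to 4225 genes and 0 to 4 members: 4225 and 4 when the 1-day 1% O2 library was dropped, 22 and 1 for the 10-day 1% O2 library, and 0 and 0 for either 20% O2 library (143 and 254 genes unadjusted). These fits drop the day term along with a library. Over all genes, 412 passed the 2-fold rule at day 1 and 651 with a prior count of 0.5, while log2(value + 1) of the deposited table gave 93 at day 1, 210 against 609 between the 20% O2 libraries and 188 against 671 between reoxygenated and 10-day 20% O2 cells. The day term pairs the 4 libraries by day, and no other pairing could be fitted with 1 library per condition. Depth limits SLC2A10, SLC2A12 and SLC2A8, which had 9 to 122 counts.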
